A study of Saccharomyces cerevisiae with 8 samples.

Results

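The autophagy genes of budding yeast that carry an ATG symbol were examined as a set, for the accessibility of their promoters. All protein-coding genes of the R64 annotation named ATG followed by a number were taken, which gave 37 of 6002 nuclear protein-coding genes. Autophagy delivers cytoplasm and organelles to the vacuole inside a double-membrane vesicle, the autophagosome. The Atg1 kinase complex starts it, a phosphatidylinositol 3-kinase and Atg9 vesicles build the membrane, and a pair of ubiquitin-like conjugation reactions attach Atg8 to it. Receptors bind cargo to Atg8, and vacuolar enzymes break the contents down. In yeast the pathway runs at a low level in rich medium, partly as the cytoplasm-to-vacuole targeting (Cvt) route, and is induced by starvation through loss of TOR kinase signalling.

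Open chromatin was mapped with ATAC-seq, a method that lets Tn5 transposase cut accessible DNA, in haploid MATa cells of the S288c background. Per the labels there were 8 samples in 4 groups of 2 independent experiments. They were cen4- cells, in which Cre recombinase has cut out the lox-flanked centromere of chromosome IV, at 180 min with 1 uM beta-estradiol, and the same strain before excision (CEN4*) at 0 min without it. The control strain CEN4, whose centromere has no lox sites, was taken at 180 min with 1 uM beta-estradiol and at 0 min without it. The sources used here do not say whether the control carries Cre. The 4 peak lists used were named by strain code (8 or 11) and time, 1 list per code and time. No label links a code to a strain, so the codes are used as names and no strain is inferred. Without replicates no difference between lists could be tested, so all differences below are descriptions. Intervals of levels and changes are 95% intervals of counting error only. Those of shares are exact binomial intervals over genes, which are not independent replicates. Time cannot be told apart from beta-estradiol. The cells were measured in bulk, so fewer cells with an open promoter and a less open promoter in every cell cannot be told apart.

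Genes were scored as having a promoter summit if at least 1 sub-peak had its summit in the window that begins 400 bp before the annotated start and ends 100 bp after it. The level of a summit is its pileup divided by the genome-wide background pileup of the same list, and is called relative pileup. Pileup is the number of overlapping reads or fragments, and the sources used here do not say which were counted. The lists held 6588 to 7093 sub-peaks in 3595 to 3699 regions. Their depth is measured by the background pileup: 439.2 (180 min) and 413.8 (0 min) for code 8, 512.2 (180 min) and 601.7 (0 min) for code 11. Marker genes of both mating types were set beside the mating type given in the labels. A promoter summit was present at 6 of 6 MATa genes in all 4 lists, and at 1 of 3 MATalpha genes in 3 lists and 2 of 3 in code 11 at 180 min. Between 64.3% and 65.6% of all genes had one, and the MATalpha gene STE3 had one in all 4 lists. These counts therefore cannot decide the mating type.

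ATG promoters carried a summit about as often as the average gene, and the same promoters did so in nearly every list. In code 8, 24 of 37 ATG genes had one at 180 min (64.9%, exact interval 47.5 to 79.8%) and 26 at 0 min (70.3%, 53.0 to 84.1%). All protein-coding genes stood at 64.6% at 180 min and 64.7% at 0 min. In code 11, 25 ATG genes had one at 180 min (67.6%, 50.2 to 82.0%) and 26 at 0 min (70.3%), beside 64.3% of all genes at 180 min and 65.6% at 0 min. A summit in all 4 lists was found for 22 ATG genes (59.5%), in 3 lists for 4, in 1 list for 1 and in none for 10 (27.0%). Among all genes, 60.8% had a summit in all 4 lists and 31.2% in none.

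The ATG promoters differed far more from each other than between lists. Among the 22 with a summit in all 4 lists, the mean relative pileup ran from 1.88 for ATG13 to 10.8 for ATG27, a range of 5.73-fold. For a single gene the highest list exceeded the lowest by a median of 1.15-fold, and by 1.25-fold at most, at ATG39. Similar levels in both codes were not particular to ATG genes. Over all genes, log2 relative pileup in code 8 and code 11 had Pearson's r of 0.976 at 180 min and 0.992 at 0 min. Over ATG genes r was 0.986 and 0.992. The median relative pileup of ATG genes with a summit was 3.18 at 180 min against 3.03 at 0 min in code 8, while code 11 had 3.04 against 2.89. For all genes with a summit it was 3.62 at 180 min against 3.68 at 0 min in code 8, while code 11 had 3.74 against 3.62. Between 57.7% and 61.5% of the ATG genes with a summit lay below the median of all genes in their list.

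**Figure D1:**
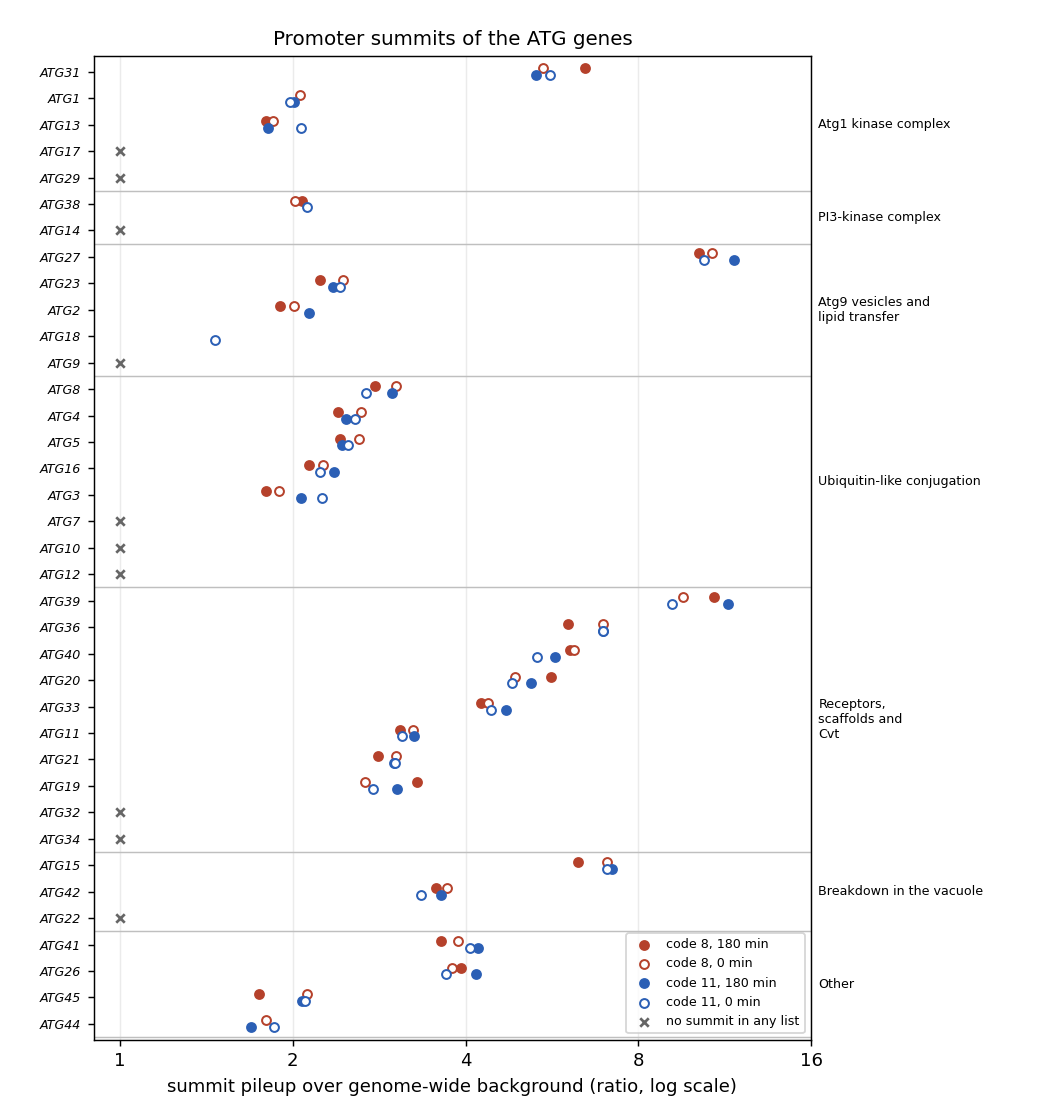
Relative pileup of the strongest promoter summit (ratio to the genome-wide background, log axis) of each of the 37 ATG genes, ordered by role. Filled points are 180 min and open points 0 min, red for code 8 and blue for code 11; crosses at the left edge mark the 10 genes with no summit in any list and carry no value. ATG27 and ATG39 lie highest, near 10, and the conjugation genes all lie at about 3 or below.

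The Atg1 kinase complex, which starts autophagosome formation, had promoters of unequal openness. ATG31, a subunit of the Atg17 scaffold, was high, with a relative pileup of 6.47 at 180 min against 5.46 at 0 min in code 8, while code 11 had 5.30 at 180 min against 5.61 at 0 min. The code 8 list at 180 min was the highest, and the other 3 lay close together. ATG13, the regulatory subunit controlled by TOR, was low among the genes with a summit, with 1.80 at 180 min against 1.85 at 0 min in code 8, while code 11 had 1.81 against 2.07. These values stood at percentiles 4.13 and 4.44 of all genes with a summit in code 8, and 4.20 and 11.1 in code 11. ATG1, the kinase itself (YGL180W, chromosome VII 160065 to 162758), had a weak and narrow peak. Its relative pileup was 2.06 at 0 min in code 8, where the 180 min list had no summit, and 2.01 at 180 min against 1.98 at 0 min in code 11. Its region ran from 159715 to 159870 (sacCer3) in all 3 lists that held it, a width of 156 bp, while no list held a region under 150 bp. ATG17 and ATG29, which encode the other scaffold subunits, had no summit in any list.

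The membrane-supply genes were mostly weak, with ATG27 as the exception. ATG27, a membrane protein that travels with Atg9, had the highest mean level of the set, with a relative pileup of 10.2 at 180 min against 10.7 at 0 min in code 8, while code 11 had 11.7 against 10.4. These values stood at percentiles 96.7 to 98.3 of all genes with a summit. The code 11 list at 180 min was the highest of the 4. The same summit lay in the window of RPL17B, a ribosomal protein gene on the other strand with 688 bp between the genes, so it cannot be assigned to either gene. ATG23, another Atg9 trafficking factor, had 2.24 at 180 min against 2.45 at 0 min in code 8, while code 11 had 2.35 against 2.42. ATG2, the lipid transfer protein, had 1.90 at 180 min against 2.01 at 0 min in code 8, while code 11 had 2.13 at 180 min and no summit at 0 min. ATG18, the partner of Atg2, had a summit only in code 11 at 0 min, with 1.46, the lowest of the values taken as a gene's strongest summit. ATG9, the scramblase on the vesicles, had none in any list. Its nearest summit lay 5835 to 5841 bp downstream of its start, past the end of the gene. In the phosphatidylinositol 3-kinase complex, ATG38 had 2.07 at 180 min against 2.02 at 0 min in code 8 and 2.12 at 0 min in code 11, with no summit at 180 min. ATG14, the subunit that assigns this kinase to autophagy, had no summit in any list.

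The conjugation genes were either weakly open in every list or had no summit at all. Of 8 members, 5 had a summit in all 4 lists and 3 in none, where 60.8% of all genes had a summit in all 4 and 31.2% in none. ATG8, which encodes the ubiquitin-like protein of the autophagosome membrane, was the highest of them, with a relative pileup of 2.78 at 180 min against 3.03 at 0 min in code 8, while code 11 had 2.97 at 180 min against 2.69 at 0 min. The order of the times differed between the codes. Its region in code 8 at 0 min ran from 80760 to 81168 on chromosome II, wholly upstream of the gene (YBL078C, 80378 to 80731, minus strand). ATG4, the Atg8 protease, and ATG5, the target of Atg12, lay between 2.40 and 2.63 in all 4 lists. ATG16, the partner of Atg5, lay between 2.13 and 2.36. ATG3, the E2 enzyme for Atg8, had 1.80 at 180 min against 1.89 at 0 min in code 8, while code 11 had 2.07 against 2.25. ATG7, the E1 enzyme, ATG10, the E2 enzyme for Atg12, and ATG12 itself had no summit in any list and no region over the window.

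The genes grouped here as receptors, scaffolds and Cvt genes held many of the high levels. The group does not stand for all of selective autophagy. It leaves out ATG44, which is needed for mitophagy and lay between 1.69 and 1.86 where it had a summit. ATG45, between 1.75 and 2.12, was also left out, and the medians below depend on this choice. Of 10 receptor, scaffold and Cvt genes, 8 had a summit in all 4 lists, beside 60.8% of all genes. Their median relative pileup was 4.95 at 180 min against 4.62 at 0 min in code 8, while code 11 had 4.96 against 4.63. For all genes with a summit it was 3.62 against 3.68 in code 8, and 3.74 against 3.62 in code 11. ATG39, the receptor for the nuclear envelope and perinuclear ER, had 10.8 at 180 min against 9.55 at 0 min in code 8, while code 11 had 11.5 against 9.14. Both lists at 180 min lay above both at 0 min. Its summit also lay in the window of the divergent gene MRPL15, of the mitochondrial ribosome. ATG36, the peroxisome receptor, had 6.04 at 180 min against 6.96 at 0 min in code 8, while code 11 had 6.93 against 6.94, and shared its summit with GON7. The code 8 list at 180 min was the low one. ATG40, the ER receptor, had 6.07 at 180 min against 6.19 at 0 min in code 8, while code 11 had 5.73 against 5.32, with a summit in the window of no other gene. ATG33, needed for mitophagy, lay between 4.26 and 4.70. ATG20, a sorting nexin of the Cvt route, had 5.63 at 180 min against 4.88 at 0 min in code 8, while code 11 had 5.21 against 4.81.

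The scaffold ATG11, the phosphoinositide-binding ATG21 and the Cvt receptor ATG19 lay lower, between 2.68 and 3.29 in all lists. ATG34, a receptor related to ATG19, had no summit. ATG32, the mitophagy receptor, had no summit in the window, but a region overlapped the window in all 4 lists with a summit 474 to 479 bp upstream. That summit had a relative pileup of 2.31 at 180 min against 2.64 at 0 min in code 8, while code 11 had 2.74 against 2.54. ATG32 was thus just outside the window, and ATG41, with its summit 89 to 97 bp inside the coding sequence, just inside it.

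Of the genes acting in the vacuole, ATG15, the lipase that opens autophagic bodies, was high, with 6.28 at 180 min against 7.04 at 0 min in code 8, while code 11 had 7.19 against 7.05. Its lowest list was again code 8 at 180 min. ATG42, a carboxypeptidase, lay between 3.34 and 3.71, and ATG22, an amino acid exporter, had no summit. The remaining members were ATG41 and ATG26, a sterol glucosyltransferase, between 3.63 and 4.21, and ATG45 and ATG44 at the low end. ATG45 had 1.75 at 180 min against 2.12 at 0 min in code 8, while code 11 had 2.08 against 2.10. ATG44, which encodes a mitochondrial fission protein needed for mitophagy, had no summit at 180 min in code 8 and 1.80 at 0 min, and 1.69 at 180 min against 1.86 at 0 min in code 11.

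Summits kept their place to within a few base pairs. The median strongest summit lay 162 bp upstream of the start at 180 min and 160 bp at 0 min in code 8, and 162 and 158 bp upstream in code 11. For all genes these medians were 179 bp at both times in code 8, and 181 bp at 180 min and 179 bp at 0 min in code 11. For the 22 genes with a summit in all 4 lists, the position of the strongest one varied over the lists by a median of 5 bp and by at most 13 bp, at ATG13, ATG19 and ATG40. The summits of ATG16 lay closest to the start, 23 to 25 bp upstream, and those of ATG13 farthest, 353 to 366 bp upstream.

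**Figure D2:**
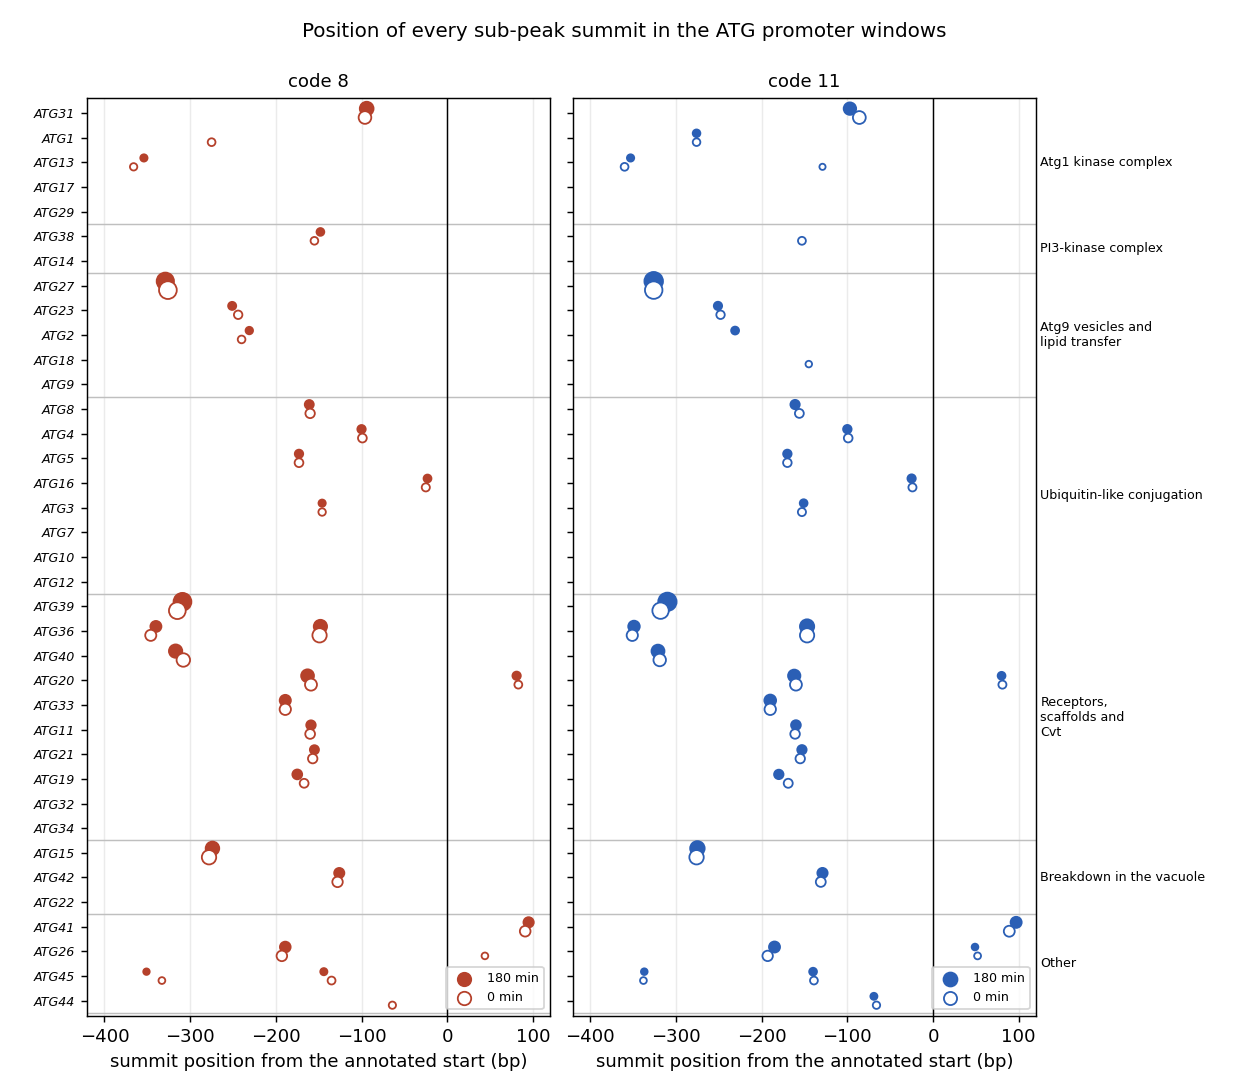
Position of every sub-peak summit in the promoter window of each ATG gene, in bp from the annotated start (0), with code 8 on the left and code 11 on the right. Filled points are 180 min, open points 0 min, and area is proportional to relative pileup; rows without a point had no summit in the window. Filled and open points of a gene sit at nearly the same position in both codes.

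The arrangement of the neighbouring gene, which played no part in choosing the members, is given as counts with no test. Of 19 ATG genes whose upstream neighbour is divergently transcribed, 15 (78.9%) had a summit in all 4 lists. Of 18 in tandem with their neighbour, 7 (38.9%) did. Among all genes these shares were 66.0% for divergent and 55.2% for tandem promoters. The gap to the upstream gene had a median of 517 bp for the 22 ATG genes with a summit in all lists and of 320.5 bp for the 10 with none, while for all genes it was 461 bp and 410 bp. The strongest summit was shared with another gene's window for 9 of these 22 ATG genes (40.9%, in code 8 at 0 min), against 34.9% of all such genes. The neighbours were RPL17B, MRPL15, GON7 and TRM3 at the high promoters of ATG27, ATG39, ATG36 and ATG20, and YBR138C, MAK3, SQS1, LRO1 and CVM1 at those of ATG42, ATG11, ATG4, ATG3 and ATG16.

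The comparison of 180 min with 0 min asks whether ATG promoters changed while chromosome IV lost its centromere in the one strain and kept it in the other. Few changed their call, and those that did were all weak. In code 8, 2 of the 26 ATG genes with a summit at 0 min had none at 180 min (7.69%, 0.946 to 25.1%), ATG1 and ATG44, beside 3.73% of all genes. None of the 11 without a summit at 0 min gained one (0 of 11, which allows a share of up to 28.5%), beside 6.43% of all genes. In code 11, ATG18 and ATG38 had none at 180 min (2 of 26, 7.69%), beside 4.39% of all genes, and ATG2 gained one (1 of 11, 9.09%, 0.23 to 41.3%), beside 4.46% of all genes. At all 5 genes the list without a summit also had no region over the window. In the lists that did call them their relative pileup was between 1.46 and 2.13, and no gene changed its call in both codes.

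Among the genes with a summit at both times, the changes were small. In code 8 the median log2 change of relative pileup (180 min over 0 min) was -0.08 over 24 ATG genes (SD over genes 0.14) and -0.03 over all genes (SD 0.15). In code 11 it was 0.04 over 24 ATG genes (SD 0.12) and 0.04 over all genes (SD 0.12). In code 8, 6 of the 24 ATG genes (25.0%, 9.77 to 46.7%) were higher at 180 min, beside 41.6% of all genes. In code 11, 14 of 24 (58.3%, 36.6 to 77.9%) were, beside 64.2% of all genes. With pileups taken relative to the median summit of each list, which subtracts 0.09 from every log2 change in code 11, these shares were 8 of 24 (33.3%) and 29.7%. In code 8 that scaling subtracts 0.02 and gave 6 of 24 (25.0%) and 34.8%. The code 8 shares of all genes, here and below, include chromosome IV and were not computed without it. Its 522 genes had a median change of 0.18 (10th percentile 0.05) in code 8, and the 3219 genes elsewhere had -0.05. Only 2 of the 24 ATG genes lie on chromosome IV, so these shares are no like comparison.

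ATG39 lay above the 90th percentile of all genes in both codes. Its log2 change was 0.18 (0.12 to 0.24) in code 8, percentile 91.7 of all genes, and 0.33 (0.27 to 0.38) in code 11, percentile 99.5. ATG19 had 0.30 (0.19 to 0.41) in code 8, percentile 97.5, and 0.14 (0.04 to 0.24) in code 11. ATG26 had 0.05 in code 8 against 0.17 in code 11, and ATG40 had -0.03 and 0.11. The receptor, scaffold and Cvt genes as a group had a median of -0.03 in code 8, where 3 of 8 were higher at 180 min, and of 0.09 in code 11, where 6 of 8 were, beside 41.6% of all genes in code 8 and 64.2% in code 11. With the scaling to the median summit, 4 of 8 were higher in code 11, with a median of 0.00.

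At the lower end, ATG45 had the most negative change in code 8, -0.28 (-0.42 to -0.14), and -0.01 in code 11. ATG36 had -0.20 (-0.28 to -0.13) in code 8 and 0.00 (-0.06 to 0.06) in code 11, and ATG15 had -0.17 (-0.24 to -0.09) and 0.03 (-0.04 to 0.09). In code 11 the most negative changes were at ATG13 (-0.19), ATG44 (-0.13) and ATG3 (-0.12), where ATG13 and ATG3 had -0.04 and -0.08 in code 8. The conjugation genes had a median of -0.11 in code 8, where 0 of 5 were higher at 180 min, and of -0.04 in code 11, where 2 of 5 were, beside the same shares of all genes. Across 22 ATG genes the changes in the codes had Pearson's r of 0.35 and Spearman's rho of 0.40, and across 3649 genes of all kinds 0.18 and 0.29. Without the chromosome IV genes ATG20 and ATG31 the values over 20 ATG genes were 0.53 and 0.55. The values of all genes include chromosome IV and were not computed without it, so they are no like comparison for these 20. These are correlations across genes of the same 4 libraries, and genes are not replicates.

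**Figure D3:**
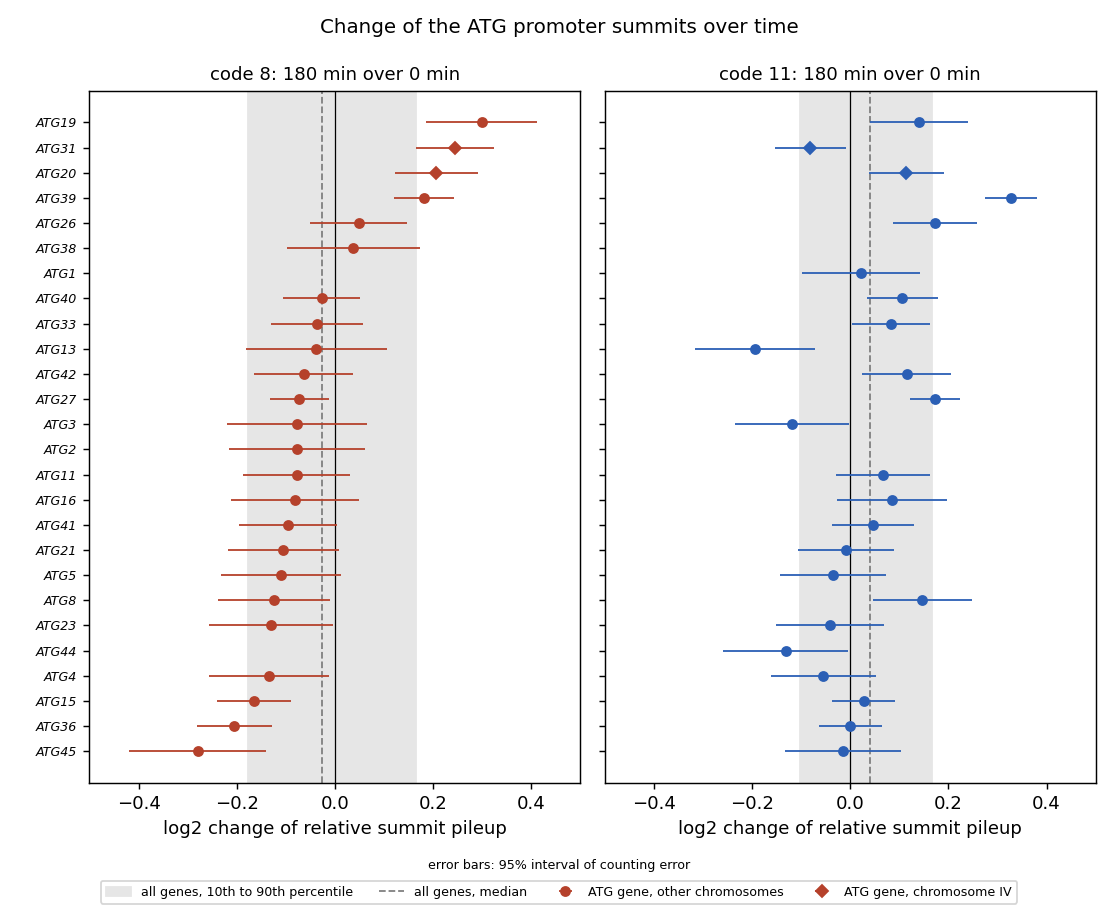
Log2 change of relative summit pileup (180 min over 0 min) of the ATG genes with a summit at both times, in code 8 on the left and code 11 on the right, with 95% intervals of counting error. Diamonds are the chromosome IV genes ATG20 and ATG31, the grey band spans the 10th to 90th percentile of all genes and the dashed line is their median. ATG31 lies above the band in code 8 (0.24) and below 0 in code 11 (-0.08), while ATG39 lies above the band in both.

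Chromosome IV, whose centromere is the target of the design, carries 3 of the 37 ATG genes. ATG31 (YDR022C, 488072 to 488662) starts 38.9 kb from CEN4, ATG20 (YDL113C, 256633 to 258555) 191 kb and ATG9 265 kb away. In code 8, ATG31 had a log2 change of 0.24 (0.16 to 0.32) and ATG20 of 0.21 (0.12 to 0.29), and ATG9 had no summit. The 22 ATG genes elsewhere with a summit at both times had a median of -0.08. All chromosome IV genes had a median of 0.18 (quartiles 0.12 and 0.26) and all genes elsewhere of -0.05, and both ATG genes lay within the chromosome's quartiles. In code 11, ATG31 had -0.08 (-0.15 to -0.01) and ATG20 0.11 (0.04 to 0.19), where all chromosome IV genes had a median of 0.05 and all others 0.04. In the authors' fold over local background, which includes the surroundings of the summit, ATG31 was lower at 180 min in code 8, with 3.93 at 180 min against 4.35 at 0 min. ATG20 had 5.62 at 180 min against 4.87 at 0 min in code 8. There its local background was the genome-wide background at both times, so its fold repeats its relative pileup and its direction could not change.

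The pathway genes without an ATG symbol changed their call at AMS1 and VPS34. Of 17 further machinery genes, 12 had a promoter summit at 180 min and 12 at 0 min in code 8, while code 11 had 13 against 11. AMS1, the vacuolar mannosidase carried by the Cvt route, gained one in both codes, with a relative pileup of 2.24 at 180 min in code 8 against 2.12 in code 11. VPS34, the catalytic subunit of the phosphatidylinositol 3-kinase, had none at 180 min and 1.75 at 0 min in code 8, while code 11 had 1.74 at 180 min and none at 0 min. The machinery list thus lost 1 of 12 in code 8, beside 3.73% of all genes, and 0 of 11 in code 11, beside 4.39%. It gained 1 of 5 in code 8, beside 6.43%, and 2 of 6 in code 11, beside 4.46%. VPS34's partner VPS30 (also called ATG6) had a summit in all 4 lists, between 2.69 and 3.01, as did APE1, the main cargo of the Cvt route, between 4.51 and 4.99. Of 13 genes of nutrient signalling, among them both TOR kinases, 11 had a summit in every list, SCH9 and TAP42 being the exceptions, beside 60.8% of all genes. Of 11 transcription regulators linked to ATG genes 7 had one in every list, and UME6, a repressor whose gene lies on chromosome IV, had 8.51 at 180 min against 7.65 at 0 min in code 8, while code 11 had 8.08 against 7.64. In the authors' fold over local background UME6 was lower at 180 min in code 8, with 7.15 against 7.56. In code 11 its fold was 8.07 against 7.63. No gene of these last lists changed its call. At 180 min relative to 0 min, 4 of 11 machinery genes, 2 of 11 signalling genes and 4 of 7 regulators were higher in code 8. The share of all genes was 41.6%, with chromosome IV included. In code 11 these counts were 10 of 11, 6 of 11 and 7 of 7, beside 64.2%. With the scaling to the median summit they were 3 of 11, 3 of 11 and 2 of 7 in code 11, beside 29.7%.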

How the data were processed

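The 4 peak lists deposited by the authors hold sub-peaks with a summit, the authors' fold enrichment over local background (a linear ratio), and the deposited -log10 p-value and -log10 q-value. Build sacCer3, MACS2 2.2.4, HOMER, Picard, Bowtie2 2.3.4.3 and SAMtools stand in the submitters' processing notes, with no role given. Pooling of experiments and shifting of cuts: not given in the sources used here. Code and time were read from the list names. Summit pileup and local background were solved from fold and p, taking fold as (pileup + 1)/(background + 1) and p as an upper Poisson tail. Between 99.1% and 99.8% of pileups came out whole within 0.05, and the solver was tested on simulated data. The genome-wide background is the floor of the local background. Where a window held several summits, the one with the highest pileup was used. Intervals of log2 changes treat pileups as Poisson counts, and shares have exact Clopper-Pearson intervals. Whether PCR copies were removed is unknown, and neither kind of interval covers them or the spread between experiments. Genes came from the RefSeq table of assembly R64, of which sacCer3 is the UCSC version, with strands read from systematic names. Of the 18 further machinery names 17 were in it, APE1 and LAP4 being names of the same gene. The members, lists and named genes (call changes, highest and lowest levels and changes, chromosome IV) were chosen with earlier results of these data known. UME6, VPS30, APE1, ATG8 and other members beyond that rule were named after their values were seen. No promoter sequence was used here, so the planned motif count was not made. Python 3.11.15, NumPy 2.4.6, pandas 2.3.3 and SciPy 1.17.1 were used.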

Additional observations from a re-analysis of the deposited data

Results flagged for a closer look

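At 3 ATG promoters the log2 change of relative pileup had opposite signs in the codes, with both intervals of counting error clear of 0. With 1 list per code and time the difference was not tested against replicates. ATG31 had a change of 0.24 in code 8 and -0.08 in code 11, a difference (code 8 minus code 11) of 0.33 (0.22 to 0.43). Its promoter is on chromosome IV, where all genes with a summit had a median difference of 0.13, beside -0.08 for all genes elsewhere. ATG8 had -0.12 in code 8 and 0.15 in code 11, a difference of -0.27 (-0.42 to -0.12), and ATG27 had -0.07 and 0.17, a difference of -0.24 (-0.32 to -0.17). All genes together had a median difference of -0.06, and after subtracting the median change of all genes in each code the intervals of ATG8 and ATG27 no longer excluded 0 in both codes, while those of ATG31 did. In the authors' fold over local background the signs of ATG31 were not opposite: it had 3.93 at 180 min against 4.35 at 0 min in code 8, and 4.39 against 4.40 in code 11. Those of ATG27 were not opposite either, with 7.47 against 7.21 in code 8 and 7.72 against 6.96 in code 11. ATG8 had a fold of 2.77 against 3.02 in code 8 and of 2.97 against 2.68 in code 11. Its local background was the genome-wide background in every list, so its fold repeats its relative pileup and its signs could not change. With the scaling to the median summit all 3 genes kept opposite signs. ATG31 then had 0.23 in code 8 and -0.17 in code 11, ATG8 -0.14 and 0.05, and ATG27 -0.09 and 0.08. The counting interval of ATG8 in code 11 spans 0.10 to either side, so with this scaling it no longer excluded 0.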

How the results depend on the processing

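No paired analysis was possible because each code and time has 1 peak list, with no replicate number, and for the same reason no replicate could be left out. Of the recomputed values, 89 stayed within 1.5 times the reported count or within the reported value's typical counting error per gene (for positions, within 1 SD over genes), and 13 did not. Some of the 89 could not have moved. Scaling to the median summit shifts all genes of a code alike, so it leaves differences between gene sets unchanged. The counting error per gene is also wider than the median log2 changes of the ATG genes, so a change of sign can fall within it. Lost genes numbered 4 in code 11 with a window of 250 bp upstream to 50 bp downstream, and 1 in code 8 with 1000 bp upstream or with a -log10 q of at least 100. With the authors' fold in place of pileup, the code 8 excess of chromosome IV ATG genes over ATG genes elsewhere was 0.10, against 0.30 as reported. The median relative pileup was lower in code 8 at 180 min (2.95, 2.82 and 2.80), in code 8 at 0 min (2.65, 2.68 and 2.68) and in code 11 at 0 min (2.63, 2.63 and 2.69) with the summit nearest the start, the narrower window, and summits in no other gene's window. The median log2 change in code 11 turned from 0.04 to -0.05 with the scaling to the median summit, and this was counted among the 89. The causes were not tested. Depth limits weak promoters: the counting interval at ATG45 spans 0.14 to either side in code 8.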

Other observations

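Several ATG windows held a second, weaker summit in addition to the one described, at positions counted from the annotated start. ATG36 had a second summit at positions -340 to -351 bp in all 4 lists, with a relative pileup of 4.16 at 180 min against 4.20 at 0 min in code 8, while code 11 had 4.56 against 4.32. ATG20 had one 80 to 83 bp inside its coding sequence, with 2.39 at 180 min against 2.11 at 0 min in code 8, while code 11 had 2.09 against 2.20. ATG45 had one at positions -333 to -351 bp, with 1.43 at 180 min against 1.57 at 0 min in code 8, while code 11 had 1.51 against 1.57. ATG26 had one 44 to 52 bp inside its coding sequence, with 1.54 at 0 min and none at 180 min in code 8, while code 11 had 1.53 at 180 min against 1.62 at 0 min. ATG13 had one only in code 11 at 0 min, at position -129 bp, with 1.30.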
